A study of Mus musculus with 6 samples.

Results

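The genes described here are 33 transcripts of the integrated stress response that its transcription factor ATF4 drives or feeds back on, taken by gene symbol from a table of 56691 mouse genes. Of these, 27 matched by symbol and 6 tRNA synthetase genes through RefSeq synonyms, since the table lists them under older symbols. The samples were KVTR cells, which the labels call mouse primary cells of a clear cell renal carcinoma, a kidney cancer of tubule epithelium. RNA was sequenced from 3 libraries treated with dopamine, a catecholamine transmitter, and from 3 blank libraries. The sources used here give no dose, duration, strain, animal age or genetic make-up behind the name KVTR. Nothing says whether libraries came from separate cultures, so p-values measure a spread that may be technical. The blank libraries are called blank 2, blank 3 and blank u, the last because its column carries no number. The comparison bears on how transcript levels differ between treated and blank cells.

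In the integrated stress response, kinases that sense amino acid shortage, unfolded protein, double-stranded RNA or heme shortage phosphorylate the initiation factor eIF2alpha. General translation then falls while ATF4 is translated more, because short reading frames upstream of its coding sequence are bypassed, so the level of Atf4 mRNA alone does not show how much protein is made. ATF4 pairs with C/EBP proteins and other basic leucine zipper factors on C/EBP-ATF composite elements, and its targets supply amino acids, charge tRNAs, make serine and one-carbon units, and restrain the response.

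The composite element carries the letters TGATGNAA. These were searched on both strands in RefSeq promoter windows of 250 bases before to 50 bases after the start (build GRCm38.p6), with TTNCATCA as the same element on the other strand. Windows were at hand for 27 of the 33 genes, and 7 of these (25.9%) held the letters, against 4.51% of 27025 genes in the promoter table. The genes were listed as ones that ATF4 drives or feeds back on, so this difference is not independent of that choice. The 7 were Asns, Chac1, Fgf21, Gars1 (as Gars), Nupr1, Trib3 and Vldlr. The windows of Atf4, Atf5, Ddit3, Cebpb and Slc3a2 did not hold them, which says only that these letters are not in these windows. The 4 windows printed here belong to targets whose 3 highest libraries are the same, a choice made after their values were seen, and capitals mark the match.
Asns, chr6:7693160-7693459, minus strand: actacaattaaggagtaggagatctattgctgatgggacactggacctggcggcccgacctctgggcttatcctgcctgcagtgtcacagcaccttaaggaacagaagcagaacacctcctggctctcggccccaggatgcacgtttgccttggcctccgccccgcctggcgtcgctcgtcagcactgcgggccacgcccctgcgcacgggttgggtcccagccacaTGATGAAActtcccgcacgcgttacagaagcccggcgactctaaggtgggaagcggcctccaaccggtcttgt
Chac1, chr2:119350992-119351291, plus strand: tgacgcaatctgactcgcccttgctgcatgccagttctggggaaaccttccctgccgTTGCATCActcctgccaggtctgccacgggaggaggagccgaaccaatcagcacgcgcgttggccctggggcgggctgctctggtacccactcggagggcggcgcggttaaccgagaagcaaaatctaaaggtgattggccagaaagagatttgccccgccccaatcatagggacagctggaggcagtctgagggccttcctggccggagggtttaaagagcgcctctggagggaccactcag
Nupr1, chr7:126625421-126625720, minus strand: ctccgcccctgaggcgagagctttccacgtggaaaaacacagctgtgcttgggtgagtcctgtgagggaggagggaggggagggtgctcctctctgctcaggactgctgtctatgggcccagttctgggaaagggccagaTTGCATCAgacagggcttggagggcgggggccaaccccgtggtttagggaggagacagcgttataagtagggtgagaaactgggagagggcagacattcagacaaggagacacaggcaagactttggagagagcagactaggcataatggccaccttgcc
Trib3, chr2:152344011-152344310, minus strand: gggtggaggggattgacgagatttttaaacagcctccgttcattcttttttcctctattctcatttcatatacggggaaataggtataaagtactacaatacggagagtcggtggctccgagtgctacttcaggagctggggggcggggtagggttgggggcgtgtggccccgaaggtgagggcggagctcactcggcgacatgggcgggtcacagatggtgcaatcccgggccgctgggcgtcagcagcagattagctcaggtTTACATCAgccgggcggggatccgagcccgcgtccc
The match began at position -23 from the start in Asns, -193 in Chac1, -110 in Nupr1 and 15 in Trib3. Asns carries it in the orientation of the gene and the others on the opposite strand. The match in Asns is TGATGAAA, the core of the nutrient-sensing element described for the human gene. Chac1 and Nupr1 hold TTGCATCA and Trib3 holds TTACATCA.

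Library totals ran from 16771499 to 23375622 counts. Values are given as CPM, counts scaled to a common library size, after TMM factors that line up the bulk of genes between libraries. The 15420 genes with enough counts were tested with edgeR's quasi-likelihood test, at a Benjamini-Hochberg adjusted p of 0.05. The labelled cell type was poorly matched by its markers. Of 19 renal tubule markers, 8 stayed under 1 CPM and 2 reached at least 10 CPM in all 6 libraries. The 19 summed to 178.7 to 369.8 CPM in blank libraries and to 144.9 to 441.5 CPM in dopamine libraries. Of 13 astrocyte markers, 11 reached at least 10 CPM in all 6 libraries. Their summed level was 7560, 2619 and 1295 CPM in blank 2, blank 3 and blank u and 1376, 6810 and 5653 CPM in dopamine 1, 2 and 3. Of 11 fibroblast and pericyte markers, 6 reached at least 10 CPM in all 6 libraries. They summed to 3703, 2511 and 2903 CPM in the blank libraries and to 785, 2297 and 3562 CPM in the dopamine libraries, in the same order. Neuron markers summed to 162.7 to 615.0 CPM and oligodendrocyte lineage markers to 120.5 to 396.5 CPM over the 6 libraries. The 8 markers of dividing cells summed to 57.1, 45.1 and 505.7 CPM in blank 2, blank 3 and blank u and to 29.7, 32.8 and 31.6 CPM in dopamine 1, 2 and 3, without overlap. All 8 had estimates below 0, and 7 had an unadjusted edgeR p under 0.05, beside 2.94% of all genes tested. edgeR called 0, beside 0.00% of all genes, and DESeq2 called 3, beside 0.130%. For 5 of the 8, every dopamine value lay below every blank value, where 8.48% of all genes did not overlap in either direction. Endothelial markers summed to 102.4 to 261.6 CPM without dopamine and to 46.3 to 71.3 CPM with it, and leukocyte markers to 36.0 to 80.7 CPM and to 86.4 to 171.9 CPM, both also without overlap. Few genes carried these sums. Of 11 leukocyte markers, 8 stayed under 1 CPM in all 6 libraries. Of the 4 tested, 3 had estimates above 0, 1 had an unadjusted edgeR p under 0.05 and 1 did not overlap. Of 6 endothelial markers, 4 were tested, 3 had estimates below 0, 2 had such a p and 1 did not overlap. Of the 11 fibroblast and pericyte markers, all tested, 8 had estimates below 0, 2 had such a p and 2 lay below without overlap. DESeq2 called 1 of these 11. The part of these marker differences in the results that follow was not tested. A smaller share of some cell type and less RNA per cell cannot be told apart in such bulk libraries.

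None of the 33 listed genes separated dopamine from blank libraries. Of these, 32 had enough counts to be tested and Fgf21 did not. edgeR called 0 of the 32, where it called 0.00% of all genes tested, and DESeq2 also called 0, where it called 0.130%. None of the 32 had an unadjusted p under 0.05 in edgeR (2.94% of all genes) or in DESeq2 (4.21%). No member had all 3 dopamine values above, or all below, the 3 blank values, a separation seen in 8.48% of all genes. The direction was higher with dopamine for 18 and lower for 14, with a median log2 fold change of 0.09, and 51.7% of all genes tested were higher, at a median of 0.01. The adjusted p was 0.9997 for each member in edgeR, and over the alternatives it ran from 0.545 to 1. The median standard error was 0.35 on the log2 scale, so equal levels are not shown either.

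**Figure D1:**
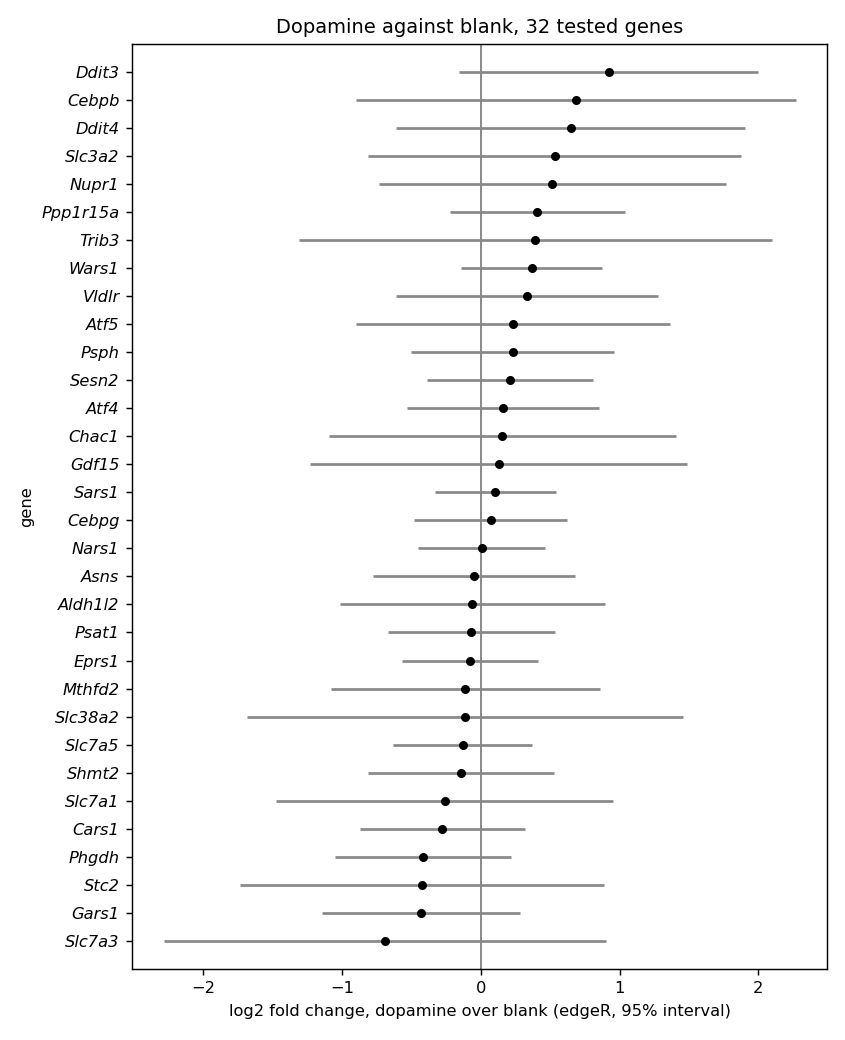
Log2 fold change of each of the 32 tested genes, dopamine over blank, with the 95% interval of edgeR's quasi-likelihood fit (3 libraries per group). All 32 intervals include 0, and the estimates run from -0.69 for Slc7a3 to 0.92 for Ddit3.

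Counted by role, all 6 transcription factor and regulator genes and all 5 feedback and growth inhibitor genes had estimates on the higher side, with medians of 0.38 and 0.39. Of the 12 genes of serine and one-carbon synthesis, asparagine synthesis and amino acid transport, 10 were on the lower side. The tRNA synthetases were split, with 3 on each side. The count of 11 regulator and feedback genes on the higher side became 7 without dopamine 3, and the count of 10 became 5 without blank u. Leaving out blank 2 turned the sign of Aldh1l2, Gdf15, Nars1 and Slc38a2. Without blank 3 it turned for Aldh1l2, Asns and Nars1. Without blank u it turned for Cebpg, Chac1, Mthfd2, Psat1, Shmt2, Slc7a1, Slc7a3 and Stc2. Without dopamine 1 it turned for Asns, Gdf15, Slc38a2 and Vldlr. Without dopamine 2 it turned for Aldh1l2, Cebpg, Psat1 and Trib3. Without dopamine 3 it turned for Aldh1l2, Atf4, Atf5, Chac1, Nars1 and Sesn2. These roles were grouped with earlier results of the data known, and nothing particular to them follows from the counts.

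Atf4 encodes the factor itself. It stood at 81.5, 99.6 and 122.8 CPM in blank 2, blank 3 and blank u and at 84.3, 97.5 and 157.9 CPM in dopamine 1, 2 and 3. Only dopamine 3 lay above the blank range. The log2 fold change was 0.16 ± 0.29 (SE, n = 3 per group; 95% interval -0.53 to 0.85), and it turned to -0.15 without dopamine 3.

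Ddit3 encodes CHOP, a C/EBP-family factor induced downstream of ATF4 and linked to cell death under lasting stress. It stood at 30.9, 24.8 and 28.0 CPM in blank 2, blank 3 and blank u and at 20.1, 77.4 and 60.9 CPM in dopamine 1, 2 and 3. Dopamine 2 and 3 were above every blank library, and dopamine 1 was the lowest of the 6. The log2 fold change was 0.92 ± 0.46 (95% interval -0.16 to 2.00), the largest estimate among the 32. Without dopamine 1 it was 1.31 with an unadjusted edgeR p of 0.000614 and an adjusted p of 0.714, and without dopamine 2 it was 0.52 with an unadjusted p of 0.303. The Ddit3 span overlaps that of Mars1, a tRNA synthetase gene on the opposite strand, by 68 bases, and a further row with the symbol Ddit3 had 0 counts.

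Cebpb, a C/EBP factor that partners with ATF4, varied 7.36-fold between libraries, the widest range among the tested members. Its values were 74.4, 52.0 and 16.5 CPM in blank 2, blank 3 and blank u and 26.4, 121.3 and 82.1 CPM in dopamine 1, 2 and 3. The low values lay in 1 library of each group, and the groups overlapped (0.69 ± 0.67). Its estimate was 0.17 without dopamine 2, 0.28 without blank u, 1.15 without blank 2 and 1.09 without dopamine 1. The Cebpb span shares 908 bases with Peds1 on the opposite strand, a gene with 3858 counts in all against 7612 for Cebpb.

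Atf5, a relative of ATF4 that is likewise controlled at translation, was lowest in dopamine 1 and highest in dopamine 3. It measured 83.7, 52.1 and 60.5 CPM in the blank libraries, in the same order, and 30.4, 76.7 and 123.8 CPM in the dopamine libraries (0.24 ± 0.48). Its sign turned without dopamine 3 (-0.29). The Atf5 span overlaps Nup62 on the opposite strand by 571 bases, with 3617 counts for Nup62 against 8674 for Atf5. Nupr1, a small stress-induced chromatin protein, lay between 47.2 and 146.2 CPM among blank libraries, against 63.6 to 188.4 CPM after dopamine (0.52 ± 0.53), and its estimate ran from 0.18 without blank u to 0.88 without blank 3. Cebpg, a C/EBP protein without an activation domain of its own, moved little, from 49.4 to 78.6 CPM over the 6 libraries (0.07 ± 0.23).

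Trib3 is a pseudokinase that ATF4 and CHOP induce and that restrains ATF4. It stood at 3.94, 7.59 and 3.21 CPM in blank 2, blank 3 and blank u and at 1.32, 9.54 and 8.46 CPM in dopamine 1, 2 and 3. Dopamine 1 was the lowest library and the others of its group the highest (0.39 ± 0.72). Without dopamine 2 the sign turned (-0.023).

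Chac1, a glutathione-degrading enzyme, measured 7.18, 12.6 and 4.07 CPM in the blank libraries and 4.47, 10.1 and 11.9 CPM in the dopamine libraries. Its highest value was in blank 3, and the means of 7.94 ± 4.29 and 8.82 ± 3.88 CPM (SD, n = 3) differed by less than either spread. The log2 fold change of 0.15 ± 0.53 turned without blank u (-0.16) and without dopamine 3 (-0.12).

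Ddit4 encodes REDD1, an inhibitor of mTORC1 signalling. It stood at 126.1, 96.3 and 46.7 CPM in blank 2, blank 3 and blank u and at 57.6, 212.4 and 151.7 CPM in dopamine 1, 2 and 3. As with Cebpb, blank u and dopamine 1 were the low libraries (0.65 ± 0.53). Without dopamine 1 the log2 fold change was 1.02, with an unadjusted edgeR p of 0.0490 and an adjusted p of 0.714. It was 0.21 (unadjusted p 0.719) without dopamine 2 and 0.34 (unadjusted p 0.546) without blank u.

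Ppp1r15a encodes GADD34, a regulatory subunit of the phosphatase that removes phosphate from eIF2alpha. It was even over the blank libraries, at 43.7 to 46.1 CPM, and ranged from 40.2 to 80.0 CPM in dopamine libraries (0.41 ± 0.27). Dopamine 1 was again below every blank library. Its estimate was 0.14 without dopamine 3 and 0.62 without dopamine 1. Sesn2, a leucine-binding inhibitor of mTORC1, lay between 75.9 and 97.9 CPM without dopamine, against 71.6 to 128.9 CPM with it (0.21 ± 0.25).

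**Figure D2:**
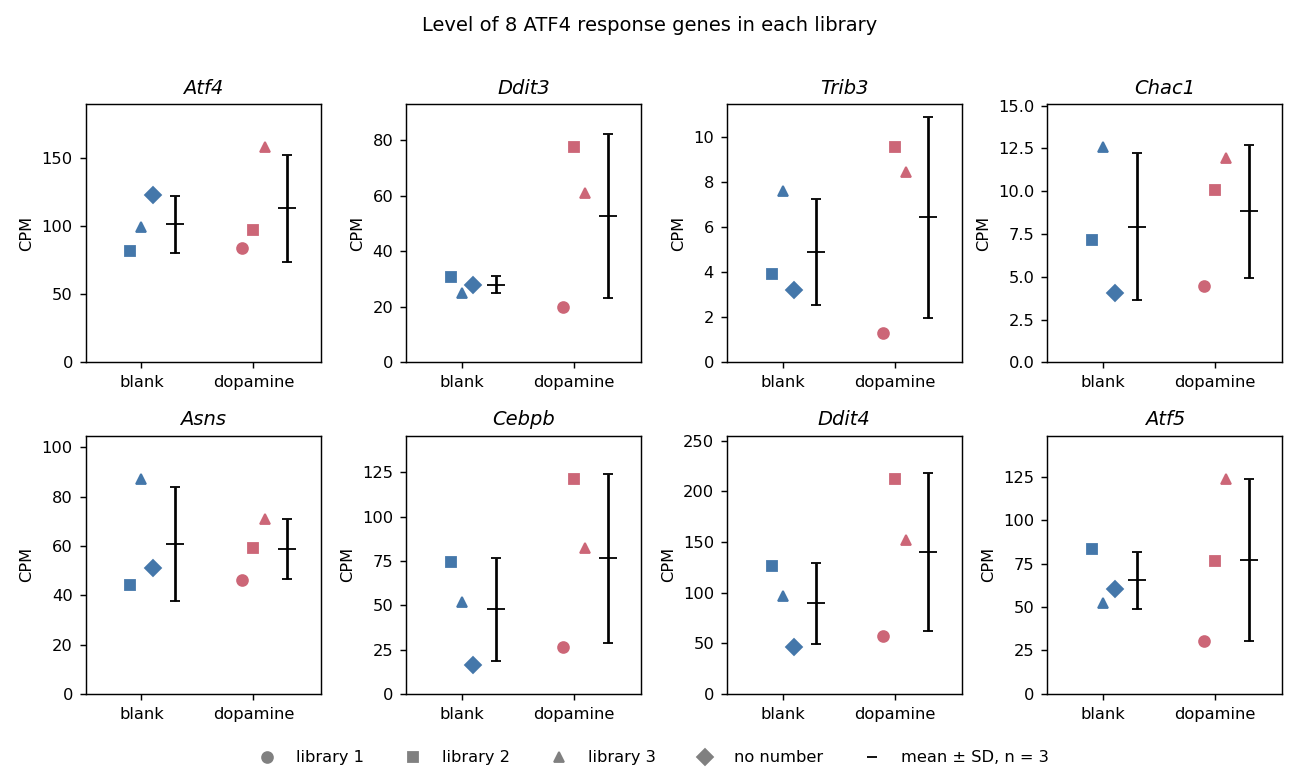
CPM (linear axis from 0) of 8 genes in each library, with blank libraries in blue and dopamine libraries in red, and the mean ± SD of 3 libraries in black. Ddit3 lies between 24.8 and 30.9 CPM in the blank libraries and at 20.1, 77.4 and 60.9 CPM in the dopamine libraries.

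Dopamine 1 was the lowest library for 6 of 32 members, beside 22.2% of all genes tested. The 6 were Ddit3, Atf5, Trib3, Ppp1r15a, Sesn2 and Slc3a2. Dopamine 1 was singled out after these values were seen, a choice that favours members above blank once it is left out. The shares over all genes that follow carry no such choice, so they are not a like comparison. With it left out, 10 of 32 members had dopamine 2 and 3 above all 3 blank libraries, against 14.5% of all genes tested, and 2 had both below, against 13.7%. The 10 were Ddit3, Ddit4, Cebpb, Nupr1, Trib3, Ppp1r15a, Sesn2, Psph, Slc3a2 and Sars1, and the 2 were Phgdh and Eprs1. An unadjusted edgeR p under 0.05 was then found for 3 (Ddit3, Ddit4 and Ppp1r15a), against 6.19% of all genes, and none passed after adjustment. With dopamine 2 left out instead, 0 members had both remaining dopamine values above all blank values, beside 6.27% of all genes. With dopamine 3 left out, 0 had them above, beside 6.51%. With the libraries numbered 2 and 3 alone, 13 members lay above blank and 3 below, beside 22.6% and 21.6% of all genes, and 6 had an unadjusted p under 0.05, beside 8.96%. Dopamine 1 had the lowest fibroblast marker sum, at 785 CPM against 2297 to 3703 CPM in the others, and the second lowest astrocyte marker sum. The part of this composition in the stress gene values was not tested.

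Serine synthesis feeds one-carbon metabolism, and ATF4 drives its enzymes. Phgdh, which catalyses the committed step, was at 72.9, 70.6 and 126.8 CPM in blank 2, blank 3 and blank u and at 62.8 to 73.3 CPM in dopamine libraries (-0.42 ± 0.27). Without blank u its log2 fold change was -0.087. The mitochondrial folate enzymes Shmt2 and Mthfd2 were also highest in blank u, at 61.1 and 29.8 CPM, and ran from 31.1 to 40.8 and from 9.61 to 21.2 CPM in the other 5. The direction of Shmt2 and Mthfd2 turned without that library, to 0.22 and 0.36. This is the library with the high dividing-cell marker sum, whose part in these values was not tested.

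Psat1, the aminotransferase after Phgdh, ran from 77.7 to 141.1 CPM with its highest value in dopamine 1 (-0.07 ± 0.25). Psph, which completes serine synthesis, ran from 20.8 to 39.9 CPM (0.23 ± 0.31, and 0.042 without blank 3), but 452 bases of its span overlap Cct6a, a chaperonin gene on the opposite strand with 37467 counts against 3792 for Psph. Aldh1l2, a mitochondrial folate dehydrogenase, stayed between 4.31 and 9.67 CPM (-0.06 ± 0.40), and 1056 bases of its span overlap Nopchap1. Since the library chemistry does not mark strand, reads in such overlaps cannot be assigned by strand.

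Asns, asparagine synthetase, is a classical ATF4 target. Its values were 44.3, 87.2 and 51.1 CPM in blank 2, blank 3 and blank u and 46.1, 59.3 and 70.8 CPM in dopamine 1, 2 and 3. The highest library was a blank one, and the means of 60.8 ± 23.0 and 58.8 ± 12.4 CPM (SD, n = 3) differed by less than the spread. The log2 fold change was -0.05 ± 0.31, and it turned to 0.30 without blank 3 and to 0.096 without dopamine 1.

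Among the amino acid transporters, Slc7a1, which carries cationic amino acids, and its relative Slc7a3 peaked in blank u. Slc7a3 was at 1.22, 1.82 and 4.75 CPM in blank 2, blank 3 and blank u and at 2.69, 1.24 and 0.91 CPM in dopamine 1, 2 and 3 (-0.69 ± 0.67). Without blank u its log2 fold change was 0.08. Slc7a1 was at 65.0 CPM there, at 56.8 CPM in dopamine 1 and at 20.5 to 38.6 CPM in the other 4 libraries (-0.26 ± 0.51).

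Slc38a2 encodes SNAT2, a sodium-coupled importer of small neutral amino acids. It reached 323.4 CPM in blank 2 and stood at 82.6 and 68.3 CPM in blank 3 and blank u, with 72.7, 155.0 and 210.3 CPM in dopamine 1, 2 and 3. The log2 fold change was -0.11 ± 0.66, and it turned to 0.94 without blank 2 and to 0.21 without dopamine 1.

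Slc3a2 encodes the 4F2 heavy chain, which joins light chains at the cell surface. It stood at 529, 258 and 183 CPM in blank 2, blank 3 and blank u and at 182, 607 and 614 CPM in dopamine 1, 2 and 3 (0.53 ± 0.57). With 1 library left out, its estimate ran from 0.25 without blank u to 1.07 without blank 2. Its light chain partner Slc7a5, or LAT1, a carrier of large neutral amino acids, varied far less, from 45.5 to 69.0 CPM (-0.13 ± 0.21, and -0.0065 without blank u). The partner Slc7a11, or xCT, which imports cystine and is not one of the 33, measured 1116, 245.3 and 56.2 CPM in the blank libraries and 82.9, 798.3 and 759.1 CPM in the dopamine libraries (0.21 ± 1.13). Slc7a11 was picked for description after its values were seen. For both Slc3a2 and Slc7a11 the 3 highest libraries were blank 2, dopamine 2 and dopamine 3, which also had the 3 highest astrocyte marker sums.

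**Figure D3:**
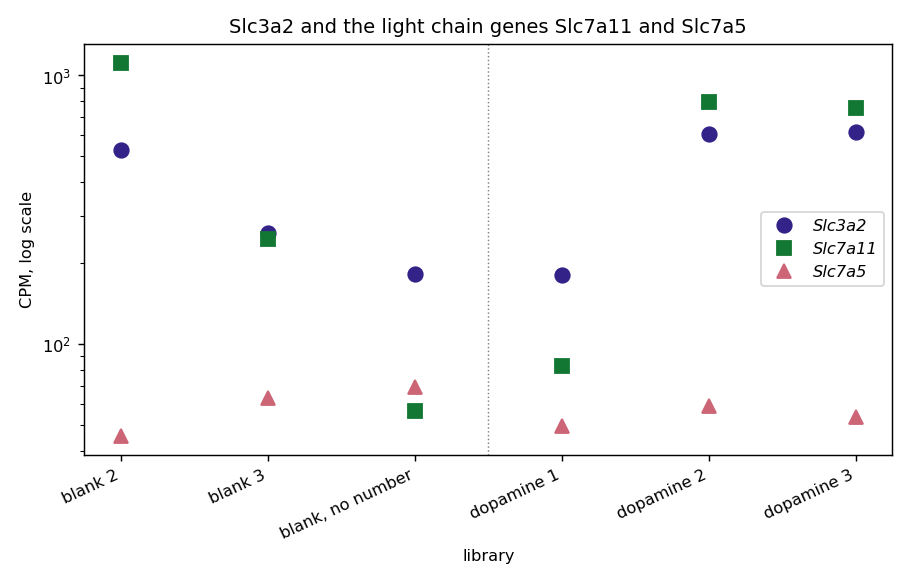
CPM on a log axis of the heavy chain gene Slc3a2 and of the light chain genes Slc7a11 and Slc7a5 in each of the 6 libraries, with blank libraries left of the dotted line and dopamine libraries right of it. Slc3a2 and Slc7a11 are highest in blank 2, dopamine 2 and dopamine 3, whereas Slc7a5 stays between 45.5 and 69.0 CPM.

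The tRNA synthetases, which charge tRNAs with amino acids, had the lowest median standard error of any role with more than 1 gene, at 0.21 on the log2 scale. Sars1 ran from 223 to 270.5 CPM over the 6 libraries, a ratio of 1.21, Nars1 from 183 to 227 CPM and Eprs1 from 190 to 253 CPM. Wars1 ran from 123.2 to 161.2 CPM after dopamine, against 94.8 to 129.9 CPM without it (0.37 ± 0.21), with overlap through blank u. Without that library all 3 dopamine values were above blank, at an unadjusted edgeR p of 0.0417 and an adjusted p of 0.999. In that setting 2 of 32 members lay above, beside 9.66% of all genes, and 1 had an unadjusted p under 0.05, beside 2.96%. Gars1 was at 89.2, 165.3 and 192.5 CPM in blank 2, blank 3 and blank u and at 98.6 to 121.6 CPM in dopamine libraries (-0.43 ± 0.30). Without blank 2 all 3 dopamine values were below blank, with a log2 fold change of -0.70 at an unadjusted edgeR p of 0.0226 and an adjusted p of 0.9999, and without blank u it was -0.20. With blank 2 left out, 3 of 32 members lay below, beside 8.43% of all genes, and 1 had an unadjusted p under 0.05, beside 4.20%. Cars1 ran from 43.1 to 81.4 CPM (-0.28 ± 0.25, and -0.055 without blank u).

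Of the secreted stress hormones, Gdf15, which acts on a hindbrain receptor, was lowest in blank 2 and highest in dopamine 1, at 7.35 and 29.9 CPM (0.13 ± 0.57). Vldlr, a lipoprotein receptor that ATF4 induces, stood at 148.7 CPM in dopamine 1 and at 48.6 to 72.6 CPM in the other 5 libraries. Its log2 fold change of 0.33 ± 0.40 turned to -0.26 without dopamine 1. Stc2, a secreted glycoprotein, reached 9.01 CPM in blank u and 2.67 to 5.21 CPM elsewhere (-0.43 ± 0.55). Fgf21, a fasting hormone, had 0, 15 and 0 counts in blank 2, blank 3 and blank u and 5, 6 and 0 in dopamine 1, 2 and 3. In the 3 libraries at 0, such a count allows up to 0.167, 0.152 and 0.1285 CPM of the unscaled totals, taken as 3 counts and covering counting error only.

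Over all genes tested, the libraries did not group by treatment. By log2(CPM + 1), blank 2 correlated at 0.985 and 0.984 with dopamine 2 and 3, and at 0.962 and 0.926 with blank 3 and blank u. Dopamine 1 correlated at 0.925 and 0.920 with dopamine 2 and 3, and at 0.953 with blank 3. The members had no single order of libraries. The 3 highest values lay in blank 2, dopamine 2 and dopamine 3 for 9 of 32 members, a pattern of 14.8% of all genes tested, and they included Ddit3, Cebpb, Atf5, Ddit4, Slc3a2 and Slc38a2. For 8 members, among them Mthfd2, Slc7a1, Gars1, Gdf15 and Vldlr, the 3 highest lay in the other 3 libraries, against 12.4% of all genes. For Nupr1, Trib3, Chac1, Asns and Sars1 they lay in blank 3, dopamine 2 and dopamine 3, which held for 3.81% of all genes. The printed promoters were chosen from this last set, in which the window of Sars1 (as Sars) does not hold the motif letters. Gars1 and Vldlr, whose windows hold them, are in the set before this last one.

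The unnumbered blank library held the highest value of 10 members and the lowest of 7, beside 22.6% and 24.3% of all genes. Blank 2 held the lowest value of 10 members, beside 12% of all genes. Relative to the mean of the 6 libraries, the regulator genes had a median log2(CPM + 1) of 0.18, -0.11 and -0.33 in blank 2, blank 3 and blank u and of -0.78, 0.51 and 0.71 in dopamine 1, 2 and 3. The serine and one-carbon enzymes went to 0.43 in blank u and stayed between -0.17 and 0.10 in the others. The ratio of highest to lowest library had a median of 2.20 over the 32 members and of 2.13 over all 15272 genes with a value above 0 in every library, and it was 3 or more for 15 members (46.9%) and for 31.1% of those genes. Among the 10052 genes with a mean of at least 10 CPM, the median was 1.83 and 17.9% reached 3. The members were not cut at that level, so their share has no like counterpart here.

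**Figure D4:**
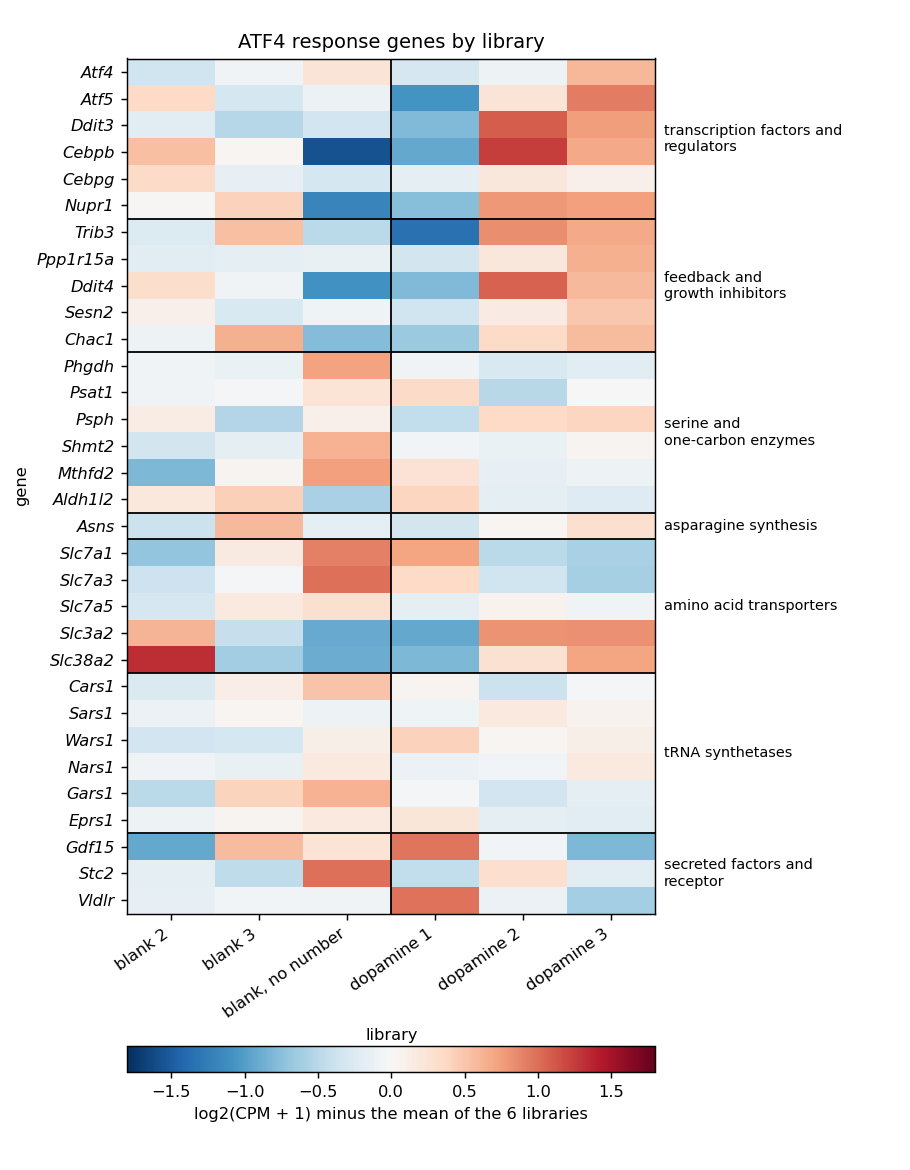
Log2(CPM + 1) of each tested gene in each library minus its mean over the 6 libraries (red above, blue below), with genes grouped by role and a line between blank and dopamine libraries. Ddit3, Atf5, Trib3, Ppp1r15a, Sesn2 and Slc3a2 are lowest in dopamine 1, while Phgdh, Shmt2, Mthfd2, Slc7a1 and Slc7a3 are highest in blank u. Of all genes tested, 22.2% are lowest in dopamine 1 and 22.6% are highest in blank u.

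Per exonic length, Slc3a2 was the most abundant of the group, at a mean of 109.7 FPKM (counts scaled to gene length and library size), and Ddit4 followed at 64.4 FPKM. Nupr1 (48.1), Sars1 (46.6), Nars1 (46.2) and Atf4 (45.3 FPKM) came next, and their ranges over libraries overlapped. Ddit3 averaged 23.2, Asns 21.8, Chac1 5.07 and Trib3 2.63 FPKM. Aldh1l2, Stc2 and Slc7a3 stayed at means of 0.96, 0.857 and 0.568 FPKM.

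**Figure D5:**
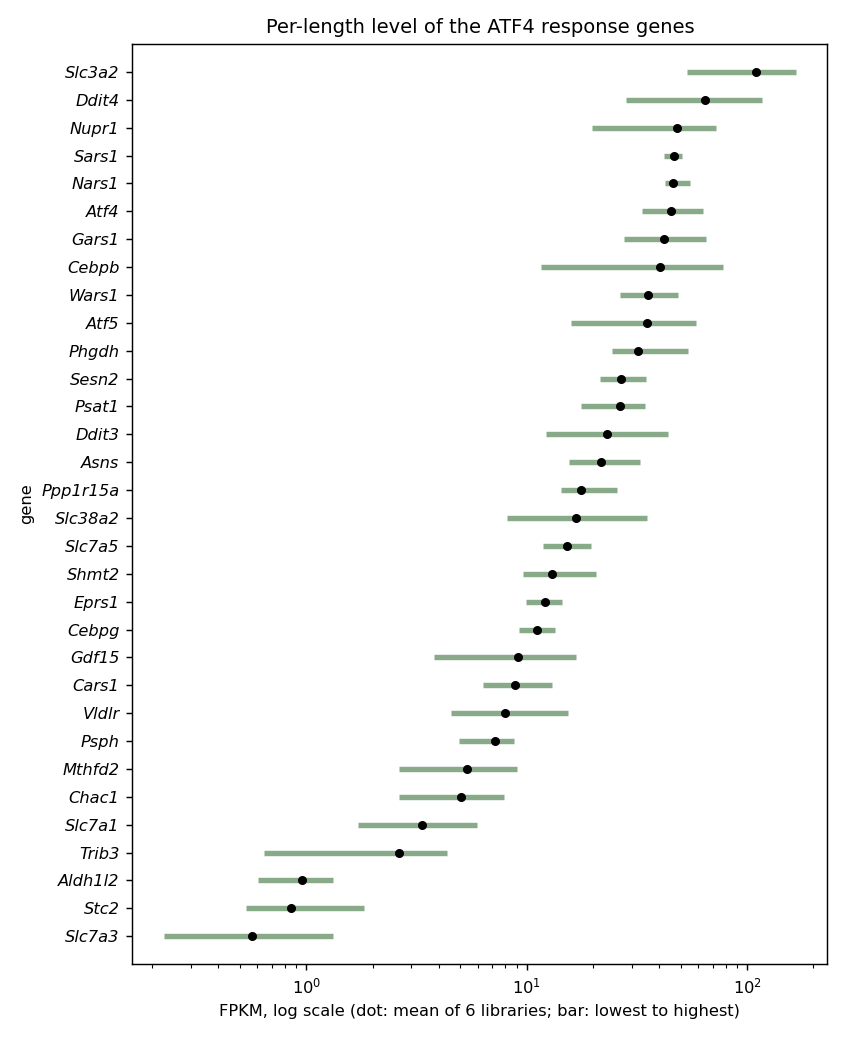
FPKM (log axis) of the 32 tested genes, computed from the counts, as the mean of 6 libraries (dot) and the range from the lowest to the highest library (bar). Means run from 0.568 for Slc7a3 to 109.7 for Slc3a2, and most neighbours in the order have overlapping ranges.

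The wider pathway gave a like picture. Over 106 further genes of the response and of neighbouring stress programmes, edgeR called 0 and DESeq2 called 1, beside 0.130% of all genes. On the higher side were 58 (54.7%, median 0.06), beside 51.7% of all genes, and 1 had an unadjusted edgeR p under 0.05, beside 2.94%. The 4 eIF2alpha kinase genes, with phosphatase partners and GCN2 cofactors (9 genes), had 5 on that side (median 0.06). The 8 genes of eIF2 and its exchange factor eIF2B had 4 on the higher side, and their estimates stayed between -0.19 and 0.18. Of the 18 genes of the IRE1 and ATF6 branches of the unfolded protein response, 8 were on the higher side (median -0.03), and the 14 other cytosolic tRNA synthetase genes had 6 (median -0.03). The 17 mitochondrial tRNA synthetase genes had 11 on the higher side (median 0.08), and the 8 cytosolic folate enzymes had 2 (median -0.22).

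Among 24 other ATF4 targets, 14 were on the higher side (median 0.10) and 1, the glutamine carrier gene Slc1a5, had dopamine values of 38.8, 53.6 and 43.4 CPM all above the blank values of 19.7, 16.4 and 21.8 CPM. Its log2 fold change was 1.23 ± 0.22, and DESeq2 called it (adjusted p = 0.0140) where edgeR did not (adjusted p = 0.9997). All 8 genes listed for mitochondrial stress had estimates above 0 (median 0.18, median standard error 0.23), and 0 had an unadjusted edgeR p under 0.05. This count was not recomputed with libraries left out, and the list was chosen with earlier results of these data known. The list held Oma1, Dele1 and the mitochondrial chaperone and protease genes Hspd1, Hspe1, Hspa9, Lonp1, Clpp and Yme1l1. In that list Hspa9, the mitochondrial Hsp70, ran from 648.6 to 849.1 CPM after dopamine, against 540.2 to 639.1 CPM without it (0.36 ± 0.24). Of the mitochondrial synthetases, Pars2 was higher in each dopamine library (8.88 to 9.68 against 7.41 to 8.23 CPM) and Iars2 lower (85.0 to 93.7 against 93.9 to 121.0 CPM). With Slc1a5 and Hspa9 these made 4 of 106 genes without overlap between groups, 3 above and 1 below, beside 8.48% of all genes.

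By the deposited coordinates (GRCm39), Atf4 (ENSMUSG00000042406) spans 80139385 to 80141742 of chromosome 15 and Ddit3 (ENSMUSG00000025408) spans 127126643 to 127132157 of chromosome 10. Cebpb (ENSMUSG00000056501, 167530835 to 167532338), Trib3 (ENSMUSG00000032715, 152179342 to 152185952) and Chac1 (ENSMUSG00000027313, 119181710 to 119184862) lie on chromosome 2. Asns (ENSMUSG00000029752) is at 7675169 to 7693254 of chromosome 6 and Slc3a2 (ENSMUSG00000010095) at 8684246 to 8700733 of chromosome 19. Each pair of positions bounds a whole gene.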

How the data were processed

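Per the labels' protocols, cDNA came from a SMART-Seq HT kit and 150-base read pairs from an Illumina NovaSeq. That kit chemistry amplifies full-length cDNA and does not mark strand. The authors deposited raw read counts and FPKM values per Ensembl gene, per the file headers. The submitters' processing notes name GRCm39 as the build. Aligner, counting software, strand handling and annotation were not given in the sources used here. FPKM values were recomputed from the counts and the deposited exonic lengths. They matched the deposited FPKM within 0.006 for all genes in blank 2, blank 3 and dopamine 2, and for all but 2080 genes in dopamine 1. A further 2 FPKM columns were not used, 1 whose name matches no label and that of the unnumbered blank library.

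Count columns were matched to samples by name. Counts passing filterByExpr (15420 genes) were fitted in R 4.3.3 with edgeR 4.0.16 (TMM, quasi-likelihood test, 2-sided, no covariate), with adjustment over all genes. DESeq2 1.42.0 and limma 3.58.1 (on log2 values with a pseudocount of 1) were alternatives. Standard errors are the log2 fold change over the square root of F. The fits were tested on simulated counts.

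The members and lists were chosen with earlier results of these data known. By the rule for named genes, all 6 values were given for Atf4, Ddit3, Asns, Trib3 and Chac1, for members with no overlap or an unadjusted p under 0.05, and for the 6 widest ranges at a mean of at least 1 CPM. Values in full for other members were added after seeing them. Near-identical copies can share reads.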

Additional observations from a re-analysis of the deposited data

How the results depend on the processing

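Under 15 alternatives (other scaling factors, filters and tests, each library left out, and the libraries numbered 2 and 3 with and without a block for the number), edgeR, DESeq2 and limma called 0 members throughout. Of 477 recomputed member values, 54 changed sign, in 19 of the 32 members, and 13 members kept their sign under every alternative. The cause was not tested for any of these. Nars1 turned with RLE factors (-0.0049), with upper quartile factors (-0.0052), with no filter on low counts (-0.0007), at a mean FPKM of at least 1 (-0.0008), in DESeq2 (-0.0049), in limma on quantile-normalized log2(CPM + 1) (-0.041), in limma on log2(FPKM + 1) (-0.038). In limma on quantile-normalized log2(CPM + 1), the sign turned for Mthfd2 (0.031), Aldh1l2 (0.0043), Slc38a2 (0.094). In limma on log2(FPKM + 1), the sign turned for Slc38a2 (0.064). With the libraries numbered 2 and 3 alone and no replicate block, the sign turned for Mthfd2 (0.21), Stc2 (0.48), Vldlr (-0.25), Shmt2 (0.22), Gdf15 (-0.41), Slc7a5 (0.045). With those libraries and the replicate block, the sign turned for Mthfd2 (0.28), Stc2 (0.46), Slc38a2 (0.14), Vldlr (-0.28), Shmt2 (0.22), Asns (0.056), Gdf15 (-0.27), Slc7a5 (0.063). Without the unnumbered blank library (blank u), it turned for Mthfd2 (0.36), Stc2 (0.29), Psat1 (0.038), Shmt2 (0.22), Chac1 (-0.16), Slc7a3 (0.083), Slc7a1 (0.22), Cebpg (-0.06). With each of the other 5 libraries left out in turn, the log2 fold changes that turned ran from -0.32 to 0.19 for Aldh1l2, -0.47 to 0.94 for Slc38a2, -0.0799 to 0.061 for Nars1, -0.50 to 0.48 for Gdf15, -0.24 to 0.30 for Asns, -0.26 to 0.63 for Vldlr, -0.29 to 0.12 for Psat1, -0.023 to 0.87 for Trib3, -0.024 to 0.28 for Cebpg, -0.12 to 0.65 for Chac1, -0.0058 to 0.40 for Sesn2, -0.29 to 0.62 for Atf5, -0.15 to 0.33 for Atf4. Over those 5, the median of the members ran from -0.018 (without dopamine 3) to 0.13, and it was 0.18 without blank u. Over all 6 libraries left out in turn, the members on the higher side ran from 14 to 22. Those at an unadjusted p under 0.05 ran from 0 to 3, and those with no overlap between groups from 0 to 12. Both highest counts came without dopamine 1, where 6.19% of all genes had such a p, 14.5% lay above and 13.7% below. The regulator and feedback genes on the higher side ran from 7 (without dopamine 3) to 11, and the one-carbon, asparagine and transporter genes on the lower side from 5 (without blank u) to 9. With the libraries numbered 2 and 3 alone, 6 members had an unadjusted p under 0.05 and 16 had no overlap, beside 8.96% of all genes and 22.6% above and 21.6% below. The replicate numbers were not taken as pairs, since nothing in the labels says that they pair samples. Deviations from group means correlated at 0.61 for number 2 and -0.27 for number 3. These values do not decide pairing, as blank 2 correlated at 0.985 with dopamine 2 and at 0.984 with dopamine 3. With the replicate block, 5 members had an unadjusted p under 0.05 (beside 7.16% of all genes). In that setting 16 had no overlap (beside 22.6% above and 21.6% below), and the one-carbon, asparagine and transporter genes on the lower side numbered 5. Without a filter on low counts, 1 of 33 members (Ddit3) had an unadjusted edgeR p under 0.05, beside 3.01% of all genes. The 2 role counts were added after seeing the data. With 3 libraries per group and a common biological coefficient of variation of 0.427, a true change inside the intervals given could go undetected.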
